A study of Mus musculus with 16 samples.

Results

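The subject is a set of 10 genes that mark, or were added to those that mark, subtypes of spinal motor neuron, measured in bulk RNA-seq libraries of lumbar cord from mice aged 150 days. The genes were taken by symbol from the 23284 symbols of the deposited count table, where all 10 were found, and all 10 also passed the filter on low counts that left 15426 genes for testing. Chodl, Mmp9, Calca and Kcnj14 stand for fast or large motor neurons. Sv2a, Esrrb and Esrrg stand for slow or small ones. Mrvi1, Layn and Rspo2 were selected on their counts, which fell in these same libraries. The comparison that chose them is not given, so their values are a description, with no test in any comparison. The 16 libraries, 1 per animal, form 4 groups of 4. These are cKO_SOD1 (Atg7 cKO animals carrying the SOD1G93A transgene), cWT_SOD1 (Atg7 cWT with SOD1G93A), cKO (Atg7 cKO without the transgene) and cWT (Atg7 cWT without it). Atg7 encodes the E1-like enzyme of autophagosome formation, and cKO and cWT are read here as its conditional deletion and the undeleted control. The SOD1G93A transgene carries a mutant human SOD1 and is used to model amyotrophic lateral sclerosis. The series title places the autophagy inhibition in motor neurons, and the driver of the deletion is not given in the sources used here.

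Motor neurons that drive fast, fatigable muscle fibres are large and are the first to withdraw from muscle in SOD1 mutant mice, while those of slow fibres, and the small gamma motor neurons of muscle spindles, persist longer. The metalloproteinase Mmp9 and the membrane lectin Chodl are used in mice to tell the fast cells from the slow ones. The nuclear receptor gene Esrrg marks gamma motor neurons, Esrrb is a close relative, and the vesicle protein Sv2a is kept at slow motor terminals in adult mice but is also made by most other neurons. In a whole-cord library, fewer cells of a type and less RNA per cell cannot be told apart.

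Promoter sequences are shown for 3 of the genes, since Chodl had the deepest fall, Layn was lower in both comparisons of cKO with cWT animals, and Mrvi1 was the one member with a binding half-site of the nuclear receptor family to which Esrrb and Esrrg belong. RefSeq promoters (GRCm38.p6) were available for 7 members, at 12 annotated starts, and were read as the 250 bases before the start. The half-site AAGGTCA, searched on both strands, was present at 1 of the 12, a Mrvi1 start, and at 4.08% of all 32851 promoters. The extended site TCAAGGTCA, which contains the half-site, and the homeodomain core TAATTA were at none of the 12, against 0.387% and 4.84% of all promoters. The windows are chr7:110946188-110946437 (minus strand) for Mrvi1, chr9:51077095-51077344 (minus strand) for Layn and chr16:78930698-78930947 (plus strand) for Chodl, each printed 5′ to 3′ on the strand of its gene, with the half-site in capitals.
Mrvi1: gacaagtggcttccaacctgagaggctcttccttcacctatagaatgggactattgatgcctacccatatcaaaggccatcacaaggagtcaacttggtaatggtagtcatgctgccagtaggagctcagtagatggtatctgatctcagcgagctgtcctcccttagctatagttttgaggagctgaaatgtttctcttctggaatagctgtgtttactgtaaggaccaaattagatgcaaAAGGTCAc
Layn: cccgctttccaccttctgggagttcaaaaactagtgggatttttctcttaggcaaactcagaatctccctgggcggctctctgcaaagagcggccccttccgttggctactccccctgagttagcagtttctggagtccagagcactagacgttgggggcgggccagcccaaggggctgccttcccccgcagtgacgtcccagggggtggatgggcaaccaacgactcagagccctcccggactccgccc
Chodl: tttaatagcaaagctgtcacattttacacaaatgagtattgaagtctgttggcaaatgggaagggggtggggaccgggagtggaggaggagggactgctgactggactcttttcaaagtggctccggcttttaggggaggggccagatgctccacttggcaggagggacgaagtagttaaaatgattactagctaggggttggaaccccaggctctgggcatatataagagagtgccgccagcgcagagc
Neither the Layn nor the Chodl window holds the half-site. A match is a run of letters and does not show binding, and no match says only that these letters are not in the window.

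Libraries held 14989026 to 20892530 counts. Every group split into 2 animals with high Xist and 2 with high Y-linked counts. Atg7 itself averaged 27.2 ± 4.50 CPM in cKO_SOD1, 24.1 ± 4.26 in cWT_SOD1, 28.0 ± 1.06 in cKO and 31.4 ± 2.51 in cWT (SD, n = 4 each), so its whole-cord count could not check the genotype labels. Values below are CPM, read counts set to a common library size with TMM factors, which also even out composition. Within the cWT_SOD1 group, replicates 1 and 4 had more neuronal RNA than replicates 2 and 3. The summed level of 14 pan-neuronal genes was 6653, 4352, 4292 and 6068 CPM in replicates 1 to 4. The results on the slow or small markers below are given with and without replicate 1. That library was the highest of its group for all 3 of them, so the range over all fits that left out 1 library is added.

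Per transcript length in cWT cords, the only scale on which genes can be ranked against each other, the order was Sv2a at 150.3 ± 2.64 FPKM, Chodl at 36.1 ± 3.98, Calca at 32.5 ± 8.48, Esrrg at 21.4 ± 0.668 and Kcnj14 at 17.8 ± 0.921. Layn at 7.47 ± 0.931, Mmp9 at 6.92 ± 0.0954, Rspo2 at 4.43 ± 0.218, Esrrb at 3.35 ± 0.307 and Mrvi1 at 3.11 ± 0.135 FPKM followed (SD, n = 4 each). Chodl and Calca, Layn and Mmp9, and Esrrb and Mrvi1 are neighbours in that order whose means differed by less than 1 SD of the more variable gene.

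**Figure D1:**
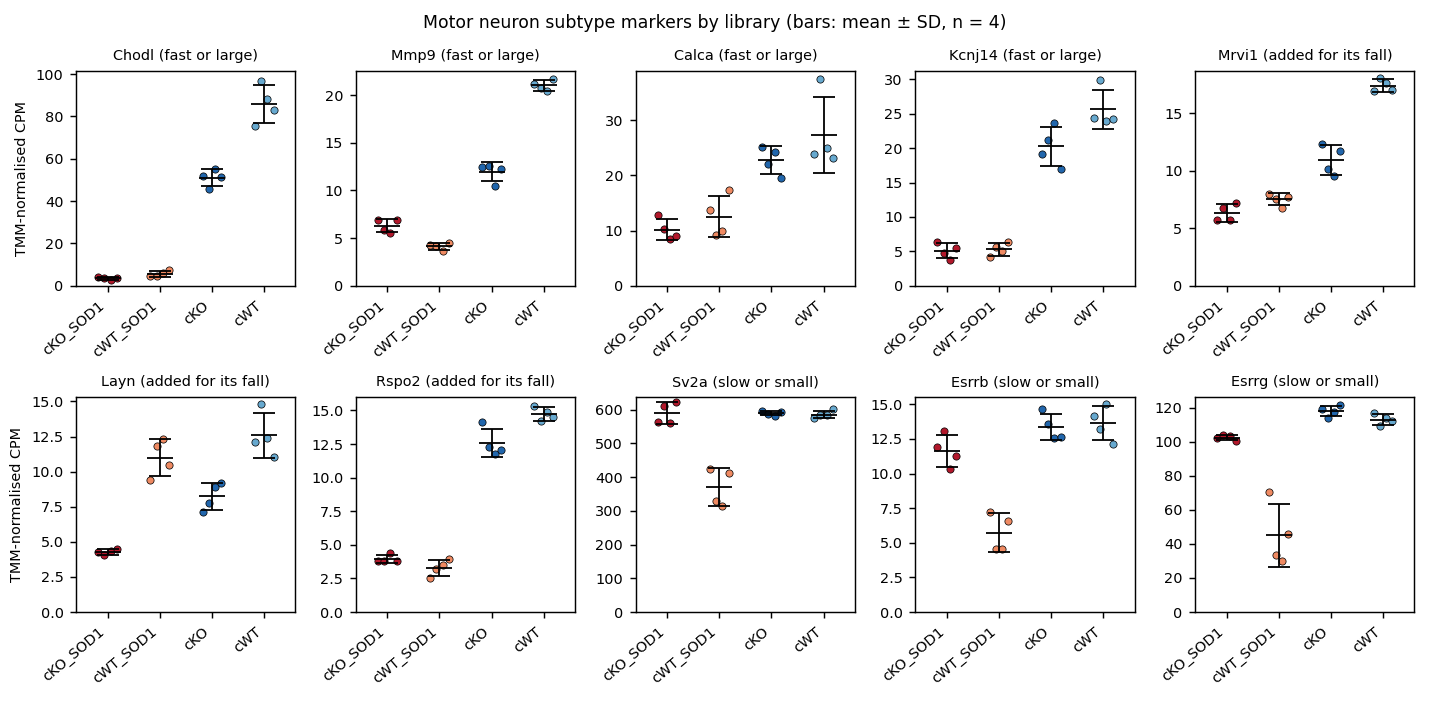
Each panel plots 1 gene in TMM-normalised CPM, with 1 point per library and bars for the mean ± SD of the 4 libraries of each group. The fast or large markers, Mrvi1 and Rspo2 are lowest in both SOD1 groups. Sv2a, Esrrb and Esrrg are instead lowest in cWT_SOD1, at 63.1%, 41.9% and 39.8% of their cWT means.

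The fast or large markers come first. Chodl (chromosome 16, 78931193 to 78951973, mm9 gene span), which encodes the C-type lectin chondrolectin, stood at 4.04, 3.82, 2.52 and 3.68 CPM in cKO_SOD1 replicates 1 to 4 and at 4.49, 4.58, 5.83 and 7.63 CPM in cWT_SOD1. Without the transgene it stood at 52.0, 45.7, 55.3 and 51.5 CPM in cKO and at 75.5, 96.9, 88.4 and 83.0 CPM in cWT. No 2 of the 4 groups overlapped, and the order was cWT, cKO, cWT_SOD1 and cKO_SOD1. As a share of the cWT mean, 4.09% was left in cKO_SOD1, 6.55% in cWT_SOD1 and 59.5% in cKO. The transgene lowered Chodl 15.3-fold in cWT animals (log2 fold change −3.94, SE 0.14, edgeR quasi-likelihood adjusted p = 1.301e-12) and 14.6-fold in cKO animals (−3.87, SE 0.14, adjusted p = 3.60e-11). These 2 falls did not differ detectably, with an interaction of 0.07 (95% interval −0.39 to 0.53, adjusted p = 0.822).

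Chodl was also lower with the deletion at either transgene status. It was 1.68-fold lower in cKO than in cWT (log2 −0.75, SE 0.11, adjusted p = 0.0113) and 1.60-fold lower in cKO_SOD1 than in cWT_SOD1 (log2 −0.68, SE 0.18, adjusted p = 0.00302). The first of these calls was fragile in its adjusted p though not in its size. It was lost without cKO replicate 1 (−0.76, adjusted p = 0.0765), cKO replicate 2 (−0.70, 0.114), cKO replicate 4 (−0.75, 0.0696), cWT replicate 2 (−0.69, 0.0692) or cWT replicate 3 (−0.74, 0.0802), and with limma on log2(FPKM + 0.1) (−0.74, adjusted p = 0.267).

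Mmp9 (chromosome 2, 164773751 to 164781346), a secreted gelatinase, stood at 6.91, 5.87, 5.54 and 6.91 CPM in cKO_SOD1 and at 4.31, 4.14, 3.63 and 4.51 CPM in cWT_SOD1. It stood at 12.5, 12.6, 10.5 and 12.2 CPM in cKO and at 21.2, 20.8, 20.4 and 21.7 CPM in cWT. Again no 2 groups overlapped, but the order of the transgenic groups was the other way round from Chodl, with cKO_SOD1 above cWT_SOD1. The deletion lowered Mmp9 1.76-fold without the transgene, at −0.81 on the log2 scale (SE 0.08, adjusted p = 1.77e-04). With the transgene Mmp9 was higher in cKO_SOD1 than in cWT_SOD1, at 0.61 (SE 0.10, adjusted p = 6.30e-05). The transgene lowered it 1.90-fold in cKO animals (log2 −0.92, SE 0.09, adjusted p = 7.00e-06) and 5.07-fold in cWT animals (log2 −2.34, SE 0.09, adjusted p = 4.72e-12). The interaction of 1.42 (SE 0.13, adjusted p = 1.035e-06) passed under every setting tried, from 1.05 to 1.47. Neutrophils also make Mmp9. The summed level of 7 neutrophil genes ran from 1.05 to 7.81 CPM in cKO_SOD1 and 2.18 to 15.6 in cWT_SOD1. It ran from 0.902 to 7.36 in cKO and 0.444 to 7.92 in cWT. None of the 4 genes that could be tested passed in any comparison. With the transgene in cWT animals their log2 fold changes were 0.72 to 1.48, with SE of 0.77 to 1.05. A change of that size could thus not be told from none. The part of neutrophils in the Mmp9 values was not tested.

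Kcnj14 (chromosome 7, 53071837 to 53080117), which encodes the inward-rectifier potassium channel Kir2.4, stood at 6.38, 4.77, 3.77 and 5.42 CPM in cKO_SOD1 and at 4.12, 5.70, 5.04 and 6.37 CPM in cWT_SOD1. It stood at 19.2, 21.2, 23.7 and 17.0 CPM in cKO and at 24.4, 30.0, 23.9 and 24.3 CPM in cWT. The 2 transgenic groups overlapped, while cKO lay just below cWT without overlap. The transgene lowered Kcnj14 in cKO animals (log2 −2.001, SE 0.15, adjusted p = 4.11e-07) and in cWT animals (log2 −2.27, SE 0.15, adjusted p = 1.083e-09). Between genotypes it did not pass, at −0.34 without the transgene (95% interval −0.63 to −0.05, adjusted p = 0.9995) and −0.07 with it (−0.43 to 0.30, adjusted p = 0.747).

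Calca (chromosome 7, 121774992 to 121779871), whose transcript is spliced to encode calcitonin or the peptide CGRP of motor and sensory neurons, stood at 12.8, 10.4, 8.43 and 9.05 CPM in cKO_SOD1 and at 13.7, 9.17, 9.91 and 17.3 CPM in cWT_SOD1. It stood at 25.2, 22.1, 24.2 and 19.5 CPM in cKO and at 23.8, 37.5, 24.9 and 23.1 CPM in cWT. Every transgenic library lay below every library without the transgene, and within each transgene status the genotypes overlapped. The transgene lowered Calca 2.25-fold in cKO animals (log2 −1.17, SE 0.19, adjusted p = 9.10e-04) and 2.19-fold in cWT animals (log2 −1.13, SE 0.19, adjusted p = 4.97e-05), with an interaction of −0.03 (95% interval −0.62 to 0.55, adjusted p = 0.932). A whole-gene count does not separate the 2 splice products, and reads could be shared with its paralog Calcb. Genes of dorsal root sensory neurons, another source of Calca, summed to 3.87 to 5.15 CPM in cKO_SOD1, 2.95 to 4.74 in cWT_SOD1, 4.49 to 6.63 in cKO and 4.91 to 5.48 in cWT over 8 genes, with Mrgprd at 0 counts in cKO_SOD1, cKO and cWT and Scn10a at 0 in cWT_SOD1. Their part in the Calca values was not tested.

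The slow or small markers had another pattern. Sv2a (chromosome 3, 95985150 to 95999103) stood at 562, 612, 562 and 622 CPM in cKO_SOD1 and at 423, 329, 314 and 414 CPM in cWT_SOD1. It stood at 596, 588, 581 and 594 CPM in cKO and at 574, 583, 583 and 602 CPM in cWT. The cWT_SOD1 libraries lay below all others, and the other 3 groups overlapped. Esrrb (chromosome 12, 87702067 to 87862578), an orphan nuclear receptor gene, stood at 11.9, 13.1, 10.3 and 11.3 CPM in cKO_SOD1 and at 7.26, 4.53, 4.53 and 6.56 CPM in cWT_SOD1. It stood at 14.6, 13.6, 12.6 and 12.7 CPM in cKO and at 14.2, 13.2, 15.0 and 12.1 CPM in cWT, so here too only cWT_SOD1 lay apart. Esrrg (chromosome 1, 189432885 to 190038763), its relative and a marker of gamma motor neurons, stood at 101.9, 103.7, 103.6 and 100.5 CPM in cKO_SOD1 and at 70.7, 33.8, 29.7 and 45.6 CPM in cWT_SOD1. It stood at 119, 114, 117 and 121 CPM in cKO and at 117, 109, 114 and 112 CPM in cWT. For Esrrg the cKO_SOD1 libraries lay above all of cWT_SOD1 and below all libraries without the transgene. Its gene span overlaps the locus 9330162B11Rik, and reads of the 2 cannot be told apart where they overlap.

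In cWT animals the transgene lowered these 3 genes by log2 fold changes of −0.66 for Sv2a (SE 0.08, adjusted p = 9.81e-07), −1.26 for Esrrb (SE 0.13, adjusted p = 2.64e-07) and −1.33 for Esrrg (SE 0.17, adjusted p = 2.13e-06). Without cWT_SOD1 replicate 1 the values were −0.73, −1.39 and −1.63. Over all 16 fits that left out 1 library they ran from −0.73 to −0.59, −1.39 to −1.15 and −1.63 to −1.18, and the calls were kept. All 3 fell in cWT animals, in a comparison where 33.1% of all genes tested did. In cKO animals none of the 3 passed, where 2.48% of all genes tested fell. The log2 fold change was 0.00 for Sv2a, with an approximate 95% interval of −0.17 to 0.17, −0.20 for Esrrb (−0.47 to 0.07, adjusted p = 0.373) and −0.21 for Esrrg (−0.56 to 0.15, adjusted p = 0.500). Esrrg passed when only the 8 libraries of that comparison were fitted, at −0.20 and an adjusted p = 9.90e-04.

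The difference itself was tested, and it passed in this direction for 23.2% of all genes. The interaction was 0.66 for Sv2a (SE 0.11, adjusted p = 1.45e-04), 1.06 for Esrrb (SE 0.18, adjusted p = 1.84e-04) and 1.13 for Esrrg (SE 0.23, adjusted p = 8.67e-04), and 0.73, 1.19 and 1.43 without cWT_SOD1 replicate 1. In cKO_SOD1 against cWT_SOD1 the 3 genes were 1.59-fold, 2.04-fold and 2.29-fold higher (adjusted p = 1.57e-06, 5.06e-06 and 1.19e-05), in a comparison where 29.1% of all genes were higher. Without cWT_SOD1 replicate 1 the log2 fold changes were 0.74, 1.16 and 1.496, against 0.67, 1.03 and 1.19 with it. Over all 16 fits that left out 1 library they ran from 0.60 to 0.74, 0.92 to 1.16 and 1.04 to 1.496. The interactions of the 3 genes ran from 0.59 to 0.73, 0.95 to 1.19 and 0.97 to 1.43, and the calls were kept. Without the transgene the deletion moved none of them detectably, at log2 fold changes of 0.01 for Sv2a (95% interval −0.16 to 0.18), −0.03 for Esrrb (−0.30 to 0.24) and 0.06 for Esrrg (−0.29 to 0.42), each at an adjusted p = 0.9995.

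RNA of neurons in general and of glia also moved between the groups. Of all genes tested, 33.1% fell and 33.2% rose with the transgene in cWT animals. In cKO_SOD1 against cWT_SOD1, 29.1% were higher and 29.1% lower. All 14 pan-neuronal genes fell with the transgene in cWT animals and all 14 were higher in cKO_SOD1 than in cWT_SOD1. In cKO animals, where 2.48% of all genes fell, 8 of the 14 fell, at log2 fold changes of −0.88 to −0.20. The other 6 did not pass, as Sv2a, Esrrb and Esrrg did not, and stood at −0.26 to −0.05. The summed level of the 14 was 9086 to 10021 CPM in cKO_SOD1 and 4292 to 6653 in cWT_SOD1. It was 13068 to 13742 in cKO and 14033 to 14812 in cWT. Over 10 microglial genes the sum was 592 to 623 CPM in cKO_SOD1, 1683 to 2717 in cWT_SOD1, 277 to 386 in cKO and 285 to 327 in cWT. Of 7 astrocyte genes, 5 rose with the transgene in cWT animals and 5 were lower in cKO_SOD1 than in cWT_SOD1, with sums of 11235 to 11793 CPM in cKO_SOD1, 19602 to 24165 in cWT_SOD1, 7349 to 8107 in cKO and 7624 to 7972 in cWT. Of 6 oligodendrocyte genes, 4 fell with the transgene in cWT animals and 4 were higher in cKO_SOD1 than in cWT_SOD1. Their part in the values of Sv2a, Esrrb and Esrrg was not tested.

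**Figure D2:**
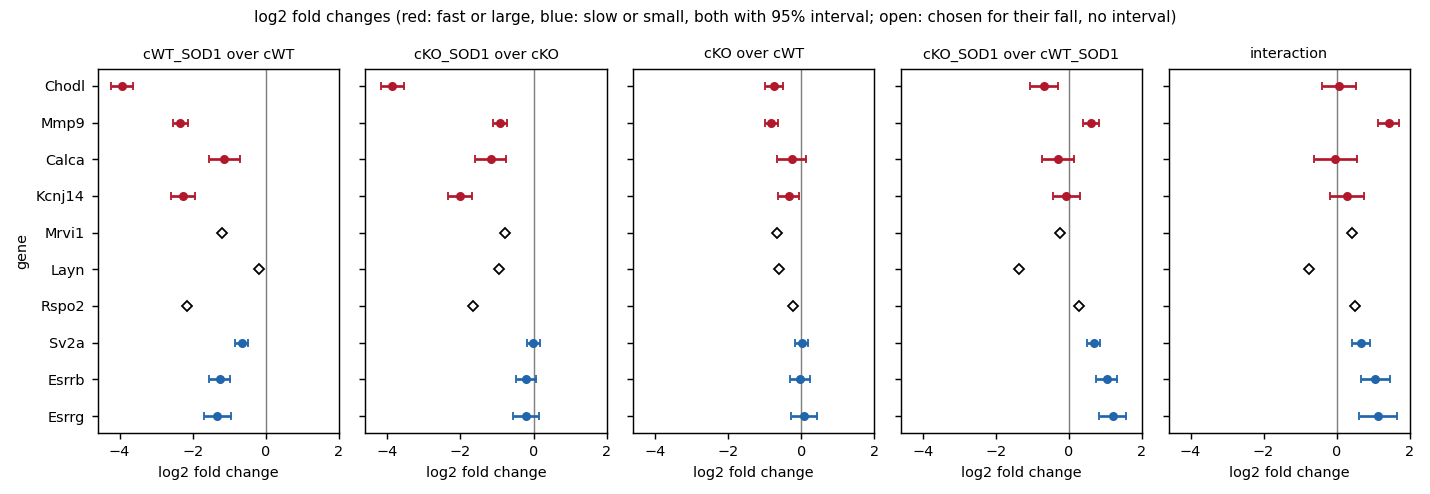
Each panel plots the log2 fold change of the 10 genes in 1 comparison, with approximate 95% intervals for the fast or large markers (red) and the slow or small markers (blue), and open symbols without interval for the 3 genes chosen for their fall. Mmp9 is the one red symbol to the right of 0 in cKO_SOD1 over cWT_SOD1, at 0.61, beside the 3 blue ones at 0.67 to 1.19.

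The 3 genes added for their fall had 3 different patterns. Mrvi1 (chromosome 7, 118011781 to 118125609), which encodes the IP3 receptor-associated substrate of cGMP-dependent kinase best known from smooth muscle, stood at 5.68, 6.81, 5.68 and 7.16 CPM in cKO_SOD1 and at 7.997, 7.55, 6.80 and 7.76 CPM in cWT_SOD1. It stood at 12.4, 10.1, 9.59 and 11.7 CPM in cKO and at 16.9, 18.1, 17.6 and 17.0 CPM in cWT, and only the 2 transgenic groups overlapped. Its log2 fold changes were −1.21 for the transgene in cWT, −0.79 for the transgene in cKO, −0.67 for cKO against cWT and −0.25 for cKO_SOD1 against cWT_SOD1. On log2(FPKM + 1), where the pseudocount shrinks the change of low genes, the first 3 were −0.79, −0.47 and −0.47. The sum of 7 smooth muscle and mural genes, taken because Mrvi1 is expressed there, ranged from 98.2 to 116.6 CPM in cKO_SOD1, 91.04 to 122.3 in cWT_SOD1, 98.05 to 106.6 in cKO and 81.8 to 111.3 in cWT. The pericyte gene Rgs5 was the largest part of that sum in each group, averaging 52.9 CPM in cWT_SOD1 and 65.1 in cWT. Single genes did move with the transgene in cWT animals. Tagln rose there by a log2 fold change of 1.37 (edgeR adjusted p = 1.81e-07), Pdgfrb rose by 0.73 (adjusted p = 8.53e-05) and Rgs5 fell by 0.30 (adjusted p = 0.0128). Their part in the Mrvi1 values was not tested. The Mrvi1 span holds the locus Gm16336, whose reads can be assigned to either.

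Layn (chromosome 9, 50864885 to 50885199), the hyaluronan-binding lectin layilin and a relative of chondrolectin, stood at 4.27, 4.03, 4.33 and 4.53 CPM in cKO_SOD1 and at 9.41, 11.8, 12.3 and 10.5 CPM in cWT_SOD1. It stood at 7.11, 7.80, 8.92 and 9.17 CPM in cKO and at 12.1, 14.8, 12.4 and 11.02 CPM in cWT. Layn thus followed the genotype at both transgene statuses, with log2 fold changes of −1.36 in cKO_SOD1 against cWT_SOD1 and −0.61 in cKO against cWT. With the transgene it changed by −0.94 in cKO animals, without overlap, and by −0.19 in cWT animals, where the groups overlapped. On log2(FPKM + 1) it changed by −1.06 in cKO_SOD1 against cWT_SOD1 and by −0.71 with the transgene in cKO animals. It was the one member whose cWT_SOD1 mean was above its cKO mean, and 34.1% of the cWT mean was left in cKO_SOD1 against 87.5% in cWT_SOD1.

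Rspo2 (chromosome 15, 42852341 to 43002364), a secreted activator of Wnt signalling that motor neurons of mice supply to the neuromuscular junction, stood at 3.81, 3.82, 4.38 and 3.78 CPM in cKO_SOD1 and at 2.52, 3.19, 3.51 and 3.91 CPM in cWT_SOD1. It stood at 14.1, 12.3, 11.7 and 12.1 CPM in cKO and at 15.4, 14.2, 14.9 and 14.5 CPM in cWT. Its log2 fold changes were −2.17 for the transgene in cWT and −1.67 for the transgene in cKO, against −0.23 and 0.27 for the genotype without and with the transgene. On log2(FPKM + 1) the transgene values were −1.43 and −1.13.

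Counted over the 7 members that were tested, all 7 fell with the transgene in cWT animals, in a comparison where 33.1% of all genes tested fell. By more than 2-fold, 6 of the 7 fell, all but Sv2a, against 4.19% of all genes. The median log2 fold change was −2.31 over the 4 fast or large markers, −1.26 over the 3 slow or small ones and 0.01 over all genes. In cKO animals 4 of 7 fell, against 2.48% of all genes, and 3 of them (Chodl, Kcnj14 and Calca) by more than 2-fold, against 0.169%. The number of genes that fell there, 383, depended on the libraries and the fit. It was 251, 233 and 197 without cKO_SOD1 replicates 1, 2 and 3, 227, 220 and 240 without cKO replicates 1, 2 and 3, and 586 without cWT_SOD1 replicate 1. It was 1245 with only the 8 libraries compared and 1047 with limma-voom. The medians were −1.58 for the fast or large markers, −0.20 for the slow or small ones and 0.00 over all genes. In cKO_SOD1 against cWT_SOD1, 4 of 7 were higher, against 29.1% of all genes, and 1 of 7 was lower, against 29.1%. The interaction was past the threshold for 4 of 7, all positive, where it passed for 45.0% of all genes and was positive for 23.2%.

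The deletion without the transgene stands apart because so few genes passed. Of 15426 genes tested 4 did, which is 0.0259%, and 3 of these were lower, which is 0.0194%. Among the 7 members tested, 2 were called, Mmp9 and Chodl. The other lower gene is one of those selected on their counts, so its pass is not a test of it. It stays in the share over all genes and is not counted among the members. The gene that was higher was Fgf21, which encodes a secreted metabolic hormone and is named here after its values were seen. At an unadjusted p under 0.05 the same test gave 543 genes, 3 of them among the 7 members, the third being Kcnj14. The libraries of cKO lay wholly below those of cWT for Chodl, Mmp9 and Kcnj14 among the 7, where 1.93% of all genes did so. Over the same comparison the medians were −0.54 for the fast or large markers, 0.01 for the slow or small ones and 0.00 over all genes. The 10 shared motor neuron genes described next had a median of −0.35, and none passed. The 5 further genes of fast or alpha motor neurons described below had a median of −0.08, and none passed.

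Motor neuron genes that are not specific to a subtype give a scale for these changes. The list held 10 genes of cholinergic transmission and motor neuron identity, and its members and those of the lists below were chosen with earlier results known. With the transgene all 10 fell in cWT animals (median log2 fold change −1.74) and 9 of 10 fell in cKO animals (median −1.21). The 3 with the smallest p in cWT animals were the solute carrier Slc10a4, at −1.47 in cKO and −2.10 in cWT animals, the vesicular acetylcholine transporter Slc18a3, at −1.19 and −1.74, and the homeobox gene Lhx4, at −0.99 and −3.38. In cKO_SOD1 against cWT_SOD1, 3 of the 10 were higher and 1 was lower, where 29.1% of all genes were higher and 29.1% lower.

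Relative to the mean log2 CPM of these 10 genes in the same library, Chodl was lower with the transgene by −2.70 in cKO animals and −2.29 in cWT animals, and Kcnj14 by −0.84 and −0.61. Rspo2 was lower by −0.50 in both. Mmp9 changed by 0.23 in cKO animals and by −0.67 in cWT animals, while Calca changed by −0.02 and 0.51. Sv2a, Esrrb and Esrrg were higher relative to the shared genes at either genotype, by 1.14, 0.94 and 0.94 in cKO animals and by 0.97, 0.38 and 0.23 in cWT animals. For Esrrg in cWT animals the libraries overlapped, at ratios of 2.13 to 3.004 in cWT_SOD1 and 1.93 to 2.47 in cWT. Mrvi1 and Layn were higher at either genotype too, by 0.44 and 1.45 in cWT animals. In cKO animals they were higher by 0.36 and 0.22, where the libraries overlapped. For the deletion without the transgene, Mmp9 was lower by −0.56, Chodl by −0.50, Mrvi1 by −0.42 and Layn by −0.35, against −0.09 for Kcnj14 and 0.01 for Calca. These ratios are a description and were not tested.

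**Figure D3:**
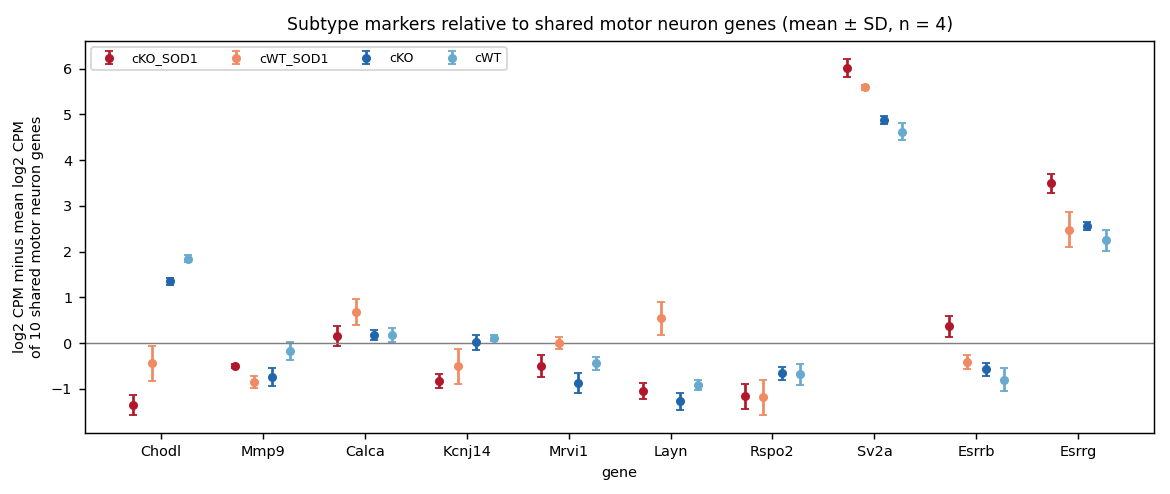
The vertical axis gives each gene's log2 CPM minus the mean log2 CPM of the 10 shared motor neuron genes in the same library, as mean ± SD of the 4 libraries of a group, and groups are to be compared within a gene only. Chodl drops below 0 in both transgenic groups, to −1.35 in cKO_SOD1 and −0.44 in cWT_SOD1, while Sv2a and Esrrg are highest in cKO_SOD1, at 6.02 and 3.50.

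Per transcript length, the ratio of a fast marker to a slow or small marker can be read within each library. These are whole-cord values, so the ratio is not a count of motor neuron subtypes. The part of cells other than motor neurons in it was not tested. Chodl over Esrrg in FPKM was 0.0531 to 0.0867 in cKO_SOD1, 0.143 to 0.431 in cWT_SOD1, 0.890 to 1.04 in cKO and 1.43 to 1.97 in cWT, and no groups overlapped. The lowest ratio was thus in cKO_SOD1, where Esrrg was near its level without the transgene and Chodl was not. Mmp9 over Esrrb was 0.602 to 0.814 in cKO_SOD1, 0.796 to 1.18 in cWT_SOD1, 1.11 to 1.28 in cKO and 1.84 to 2.36 in cWT, in the same order of means. On this ratio cKO_SOD1 overlapped cWT_SOD1, and cWT_SOD1 overlapped cKO.

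**Figure D4:**
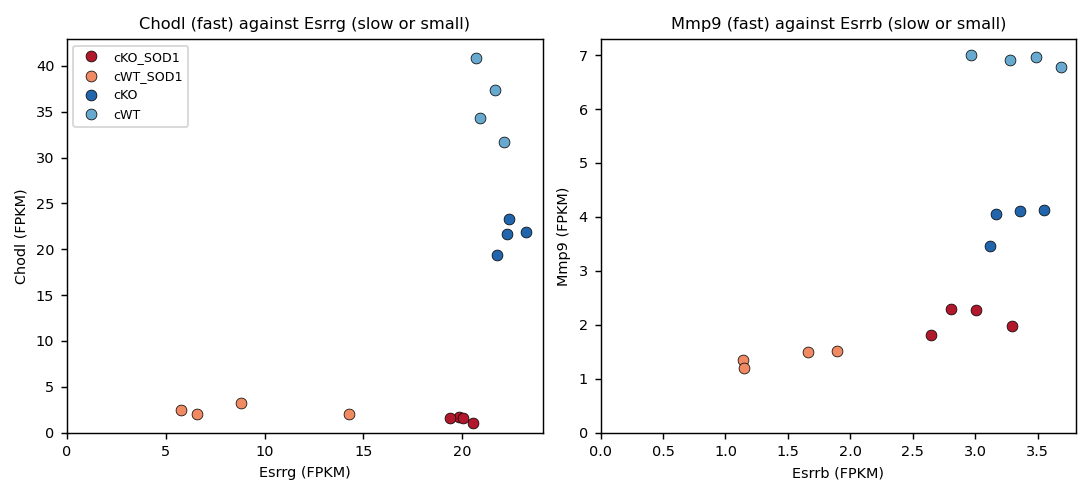
The left panel plots Chodl against Esrrg and the right panel Mmp9 against Esrrb, both axes in FPKM, with 1 point per library. The 4 cKO_SOD1 libraries lie at the right and bottom of the left panel, at a Chodl to Esrrg ratio of 0.0753 ± 0.0151, whereas the cWT_SOD1 libraries spread along the bottom at 0.311 ± 0.124 (SD, n = 4 each).

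Other genes described for these subtypes did not all move with the members. Over all genes tested, 33.1% fell and 33.2% rose with the transgene in cWT animals, and 2.48% fell and 4.80% rose in cKO animals. Of 5 further genes of fast or alpha motor neurons, 3 fell and 1 rose in cWT animals, and 3 fell and none rose in cKO animals. The potassium channel subunits Kcng4 and Kcnq5 fell in both, at log2 fold changes of −0.82 and −0.30 in cKO animals and −1.52 and −0.91 in cWT animals. Dlk1 and Vipr2, of the same list, are named here after their values were seen. Dlk1 fell in cWT animals, at −1.28, and did not pass in cKO animals, at −0.02. It was higher in cKO_SOD1 than in cWT_SOD1, at 1.298, as Sv2a, Esrrb and Esrrg were. Vipr2 fell in cKO animals, at −1.24, and did not pass in cWT animals, at −0.48. Spp1, which encodes osteopontin and is also made by activated microglia, rose by 2.55 in cWT animals. Of 8 further genes of slow or gamma motor neurons, 1 fell and 4 rose in cWT animals, and 1 fell and 1 rose in cKO animals. Among those that rose in cWT animals were the GDNF receptor gene Gfra1 at 0.76, Pard3b at 1.18 and the kinase gene Prkcd at 1.57. In cKO_SOD1 against cWT_SOD1 these 3 were lower, at −0.70, −0.83 and −1.14, unlike Sv2a, Esrrb and Esrrg. Over that comparison 29.1% of all genes were lower and 29.1% higher. Of the 5 fast or alpha genes 2 were lower and 3 higher, and of the list of 8, 3 were lower and 1 higher. Which cells of the cord made these genes was not tested. The median of this list was 0.21 in cKO animals and 0.19 in cWT animals.

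The genes with the most similar profile were found by the root mean square difference of log2 CPM, centred per gene, over the 16 libraries, among the 14368 genes tested whose mean reached 1 CPM. The measure is not scaled for the size of a change. For Chodl, which had the deepest fall, the nearest were Kcnj14 at 0.93 and the homeobox gene Isl2 at 0.98. Mmp9 was nearest to the NMDA receptor subunit gene Grin3b (0.24) and Slc10a4 (0.25), Kcnj14 to Isl2 (0.25) and Slc10a4 (0.26), Calca to the filament gene Prph (0.24) and Arhgap36 (0.27), and Rspo2 to Slc10a4 (0.26) and Kcnj14 (0.29). Sv2a and Esrrg lay nearest to genes outside the motor neuron list, Sv2a to Scrn1 (0.050) and Opcml (0.055), and Esrrg to the sodium channel gene Scn1a (0.070) and Sgpp2 (0.085). Layn was nearest to Pdgfd (0.26) and Gna14 (0.27), and Mrvi1 to the synuclein gene Sncg (0.24) and Tpd52l1 (0.25). A gene that changes little is near many others, so these distances are to be compared within a member only.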

How the data were processed

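The authors deposited raw counts per gene symbol, 1 column per library, and FPKM values scaled for transcript length and depth. The submitters' processing notes name mm9 as the build and list Cufflinks 2.0.2, TopHat2 2.0.4 and bcl2fastq 1.8.4. Which tool counted reads, and with what strand setting, is not given in the sources used here. Libraries came from poly-A RNA, per the labels' protocols, and the design text calls the animals biological replicates. The test on counts was that of edgeR 4.0.16, run in R 4.3.3 (quasi-likelihood F-test, TMM, default filterByExpr), with all 16 libraries in 1 fit and 1 coefficient per group. Benjamini-Hochberg adjustment ran over the 15426 genes that passed the filter, with calls at an adjusted p under 0.05. "Rose" and "fell" are used of called genes. The SE is the log2 fold change over the square root of its F statistic, and intervals use 12 residual degrees of freedom, so both are approximate. Log2 CPM had a prior count of 2. FPKM in the table of all libraries and in the tables per library were identical. The test was checked on simulated counts. DESeq2 1.42.0 and limma 3.58.1 served as alternatives. The 10 genes, the lists and the tests were chosen with earlier results of these data known. The genes named beside the members are the 3 of a list with the smallest p for the transgene in cWT animals and the 2 nearest profiles of each member (those of Esrrb are not reported here), and others are said to be chosen later. No library was treated as a duplicate, since pairs within a group differed by a chi-square of 2.88 to 40.8 per gene, above counting noise.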

Additional observations from a re-analysis of the deposited data

Results flagged for a closer look

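The effect of the transgene differed between genotypes, by the interaction test given above, for 4 of the 7 members tested, all 4 positive. Over all genes tested the interaction passed for 45.0%, and was positive for 23.2%. The interaction on the log2 scale was 1.42 for Mmp9, 0.66 for Sv2a, 1.06 for Esrrb and 1.13 for Esrrg. For Mmp9 the genotype difference also had opposite signs without and with the transgene.

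In 4 of the 40 sets of 4 libraries (10 genes in 4 groups) 1 library lay far from the other 3 by Dixon's criterion, which chance alone gives in about 1 set in 20. Kcnj14 at 30.0 CPM and Calca at 37.5 CPM were both high in cWT replicate 2. Mmp9 at 10.5 CPM was low in cKO replicate 3, and Rspo2 at 4.38 CPM was high in cKO_SOD1 replicate 3.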

How the results depend on the processing

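Of 134 recomputed counts of called members, 127 stayed within 1.5 times the value reported. The other 7 concern the deletion without the transgene, where the count fell to 1 of 7 on log2(FPKM + 0.1), with or without a filter on low values, and was 1 to 2 when 1 library was left out, because Chodl lost its call. Of 1340 recomputed values of single genes, 26 changed sign, and none of these was called. Sv2a, whose transgene effect in cKO animals was near 0, took values of 0.011 with upper-quartile factors, 0.034 on log2(FPKM + 0.1), 0.034 on log2(FPKM + 1), 0.034 with no filter on FPKM, 0.0025 with only the 2 groups compared, and −0.028 to 0.027 when 1 library was left out. Leaving out 1 library also gave −0.081 to 0.019 for Esrrb without the transgene, −0.19 to 0.048 for Kcnj14 with it, and interactions of −0.030 to 0.23 for Chodl and −0.22 to 0.15 for Calca. Deviations of same-numbered animals did not correlate above 0.1 in every pair (−0.253 to 0.312 over all numbers, and 0.020 to 0.312 for number 4, where all were positive). Among the libraries of other groups, 7 of 16 libraries were closest to one of their own number. The numbers were not taken to pair the samples in the main fit, and a fit with the number as a block is given next. With the replicate block the counts of called members were unchanged, at 7, 4, 2, 5 and 4 of 7, and Chodl in cKO against cWT had an adjusted p = 0.0493. Over all genes, the deletion without the transgene gave 17 calls with DESeq2, 9 with only its 8 libraries, 10 with limma-voom weighted by group and 2 (without cKO replicate 2) to 9 (without cWT_SOD1 replicate 1) when 1 library was left out, against 4. Of the 4 genes called on log2(FPKM + 0.1), 1 was lower. The transgene in cKO animals gave 2480 with only its 8 libraries, 2264 with limma-voom and 685 (without cKO replicate 2) to 1643 when 1 library was left out, against 1123. The share that was lower was 50.2% with only its 8 libraries, 46.2% with limma-voom and 18.2% on log2(FPKM + 0.1), against 34.1%. Depth limits the low members most: Chodl had 54 to 74 counts in cKO_SOD1 and 73 to 115 in cWT_SOD1 libraries, and Rspo2 65 to 94 and 41 to 62.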

Other observations

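Paralogs of the members were looked at after their values were seen. Calcb, which encodes the second CGRP, averaged 6.04 ± 0.851 CPM in cKO_SOD1, 3.42 ± 1.21 in cWT_SOD1, 9.96 ± 1.34 in cKO and 11.9 ± 3.41 in cWT (SD, n = 4 each). The transgene lowered it by a log2 fold change of −0.72 in cKO animals (edgeR adjusted p = 0.0382) and of −1.80 in cWT animals (adjusted p = 1.307e-06). Its interaction of 1.08 passed (SE 0.30, adjusted p = 0.00762), while that of Calca did not. The ratio of Calca to Calcb in FPKM was 1.55 to 1.82 in cKO_SOD1, 2.69 to 5.73 in cWT_SOD1, 2.06 to 2.70 in cKO and 2.01 to 2.998 in cWT, and cKO_SOD1 lay below all other libraries.

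The vesicle protein genes Sv2b and Sv2c fell with the transgene in cWT animals, at log2 fold changes of −1.77 and −1.71 (edgeR adjusted p = 1.52e-08 and 1.43e-08). In cKO_SOD1 against cWT_SOD1 both were higher, at 1.11 and 1.43 (adjusted p = 5.27e-06 and 2.72e-07). In cKO animals the transgene lowered Sv2b by −0.56 (adjusted p = 0.0209), and Sv2c stood at −0.26 (adjusted p = 0.294).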
